A study of Mus musculus with 6 samples.

Results

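H19 and 9 further imprinted genes were examined in poly(A)-selected RNA of mouse RPE/choroid, the retinal pigment epithelium scraped from the eye together with its vascular bed. These 10 genes, out of 33924 genes listed, were chosen by a fixed list of symbols (H19, Igf2, Dlk1, Meg3, Cdkn1c, Plagl1, Grb10, Peg3, Mest and Igf2r) that was drawn up with the outcome of the authors' own comparison of the ages known. All 10 were listed. The study set 3 young against 3 aged C57BL/6J mice, and each sample pooled 2 eyes. No mouse carried a transgene or received a treatment. The sample titles give 1 to 2 months for young mice and 20 to 24 months for aged mice, while the age field of the aged mice gives 22 to 24 months. Sex is given as male throughout by the labels, but the methods of the paper include females, and its young group is somewhat older.

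What could be measured was the level of each gene over the 6 libraries jointly. The deposited table holds 1 mean normalized count per gene, averaged by the authors over young and aged libraries alike, beside the columns of their own comparison of the ages, which were not used here. A fold change between young and aged RPE/choroid, a spread between mice, an error of any level and a test could therefore not be given, and every value below is a description. The depth of a single library is not known.

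Imprinted genes are read mainly from the copy inherited from 1 parent, because DNA methylation set in the egg or sperm marks the copies differently. Many of them act on growth before and shortly after birth, and the expression of a network of imprinted genes is known to decline in several organs once postnatal growth slows. H19 is a noncoding RNA of the maternal chromosome and shares enhancers with Igf2, the paternally expressed growth factor beside it. Meg3 and Dlk1 form a comparable pair of a maternal noncoding RNA and a paternal coding gene. The transcription factor Plagl1, also known as Zac1, has been described as a regulator of several genes of this network.

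H19, Igf2, Meg3 and Mest carry microRNA genes inside them, and the mature sequences of these are shown because they are the part of the H19 and Meg3 loci whose products are known in detail. The sequences are from RefSeq on GRCm38.p6, written 5′ to 3′ with the seed (bases 2 to 8) in capitals. Both arms of miR-675 lie within exons of 3 of the 7 annotated H19 transcripts on the minus strand, the 5p arm at chr7:142577112-142577133 and the 3p arm at chr7:142577078-142577099.
miR-675-5p: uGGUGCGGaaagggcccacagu
miR-675-3p: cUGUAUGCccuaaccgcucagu

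The microRNAs of the other host genes have seeds that differ from these and from one another. The arms of miR-483 lie outside the annotated exons of Igf2 (5p at chr7:142654968-142654989, 3p at chr7:142654932-142654952, minus strand), and those of miR-335 outside the annotated exons of Mest (5p at chr6:30741314-30741336, 3p at chr6:30741354-30741375, plus strand). On the plus strand in Meg3, miR-770 (5p at chr12:109563710-109563731, 3p at chr12:109563744-109563765) is exonic in 1 and miR-1906 (chr12:109544588-109544609) in 5 of the 11 annotated transcripts.
miR-483-5p: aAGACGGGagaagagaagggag
miR-483-3p: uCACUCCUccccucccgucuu
miR-335-5p: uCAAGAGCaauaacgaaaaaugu
miR-335-3p: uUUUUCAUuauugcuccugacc
miR-770-5p: aGCACCACgugucugggccacg
miR-770-3p: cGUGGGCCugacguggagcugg
miR-1906: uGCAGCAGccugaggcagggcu

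The hairpin genes Mir675, Mir483, Mir770 and Mir1906-1 were listed at a mean normalized count of 0 in the table, and Mir335 had 2.81. Poly(A)-selected libraries hold long transcripts, so these values describe the hairpin entries only and not the mature microRNAs.

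All 10 imprinted genes were detected, a gene being counted as detected from a mean normalized count of 10 upward, and 8 of them reached 1000. Among the 25517 genes with a mean above 0, 72.4% reached the lower and 29.7% the higher of these levels. The exceptions were Plagl1, with a mean normalized count of 148, and Dlk1, with 56.0. The 10 genes were chosen with the outcome of the age comparison known, and the mean joins both ages. A gene could therefore reach a level through a single age group, and these counts do not show that imprinted genes are unusually abundant. Together the 10 genes held 0.0531% of all normalized counts, and H19 alone held 22.5% of what the 10 genes held. Since a normalized count grows with the length of the transcript, levels of single genes are set against each other below per kb of transcript, the longest annotated one unless another length is named. Counts of genes that reach a level, and shares of summed counts, are on the scale of the mean normalized count, on which longer transcripts weigh more.

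**Figure D1:**
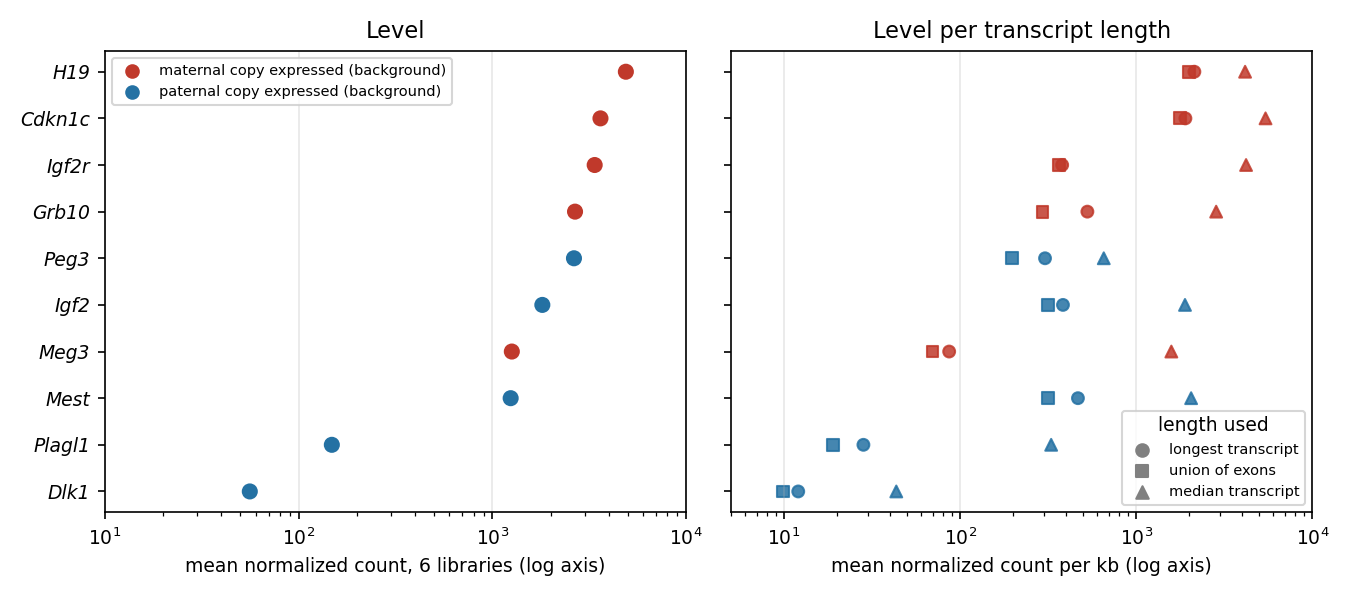
Mean normalized count (left) and mean normalized count per kb (right) of the 10 imprinted genes over the 6 libraries, on log axes, 1 row a gene. Colours mark the parental copy a gene is known to be expressed from, and on the right the marker shape gives the transcript length used. H19 and Cdkn1c lie highest per kb of the longest transcript (2135 and 1899) and Plagl1 and Dlk1 lowest under each length.

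The noncoding RNAs of the list lay far apart. H19 (ENSMUSG00000000031, GRCm38 chr7:142575529-142578143, minus strand) reached a mean normalized count of 4881 and, with a longest transcript of 2286 bases, the highest level per kb of the 10 genes, 2135 mean normalized counts per kb. This placed it at percentile 93.3 of the genes with a transcript length. Meg3 (ENSMUSG00000021268, chr12:109541001-109571726, plus strand) had a mean normalized count of 1259. Its longest annotated transcript has 14548 bases, which gave 86.6 mean normalized counts per kb, the eighth level of the 10 genes, at percentile 49.3.

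The level of Meg3 depended most on the transcript length used. Divided by the median length of its 11 annotated transcripts, 797 bases, its level was 1580 mean normalized counts per kb. H19 was 24.7 times as high as Meg3 per kb of the longest transcript and 2.62 times as high per kb of the median transcript. Which Meg3 transcripts these tissues contain could not be read from a table by gene.

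Among the growth factor genes, Igf2 encodes the insulin-like growth factor that binds the IGF1 and insulin receptors, and Igf2r encodes the receptor that carries IGF2 to the lysosome for breakdown. Igf2 (ENSMUSG00000048583, chr7:142650766-142666816, minus strand) had a mean normalized count of 1810 and 383 mean normalized counts per kb. Igf2r (ENSMUSG00000023830, chr17:12682406-12769664, minus strand) had 3370 and, with a longest transcript of 8887 bases, 379 per kb. The levels of ligand and clearing receptor were thus next to each other per kb of the longest transcript, with a ratio of Igf2r to Igf2 of 0.990. The ratio was 1.15 per kb of exon union and 2.22 per kb of the median transcript. The median of the 3 annotated Igf2r transcripts is only 803 bases, so the last ratio rests on a short annotated transcript. Whether they differ beyond the spread between mice could not be examined.

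Grb10 encodes an adaptor that dampens signaling from the insulin and IGF1 receptors. Grb10 (ENSMUSG00000020176, chr11:11930508-12038683, minus strand) had a mean normalized count of 2668 and 527 mean normalized counts per kb, the third highest level of the 10 genes. Of the receptors on which it acts, Insr had 482 and Igf1r had 38.3 mean normalized counts per kb. The ligand Igf1, which is not imprinted, had 421 mean normalized counts per kb and so lay near Igf2 on this scale. The RNA-binding proteins named after the Igf2 transcript were lower, with 54.9 mean normalized counts per kb for Igf2bp1, 11.4 for Igf2bp2 and 4.79 for Igf2bp3.

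Cdkn1c encodes the cell cycle inhibitor p57, which blocks cyclin-dependent kinases. Its mean normalized count was 3610, with 1899 mean normalized counts per kb, second to H19 and at percentile 92.5. The gene (ENSMUSG00000037664, chr7:143458339-143461050, minus strand) lies 792 kb from Igf2. Among its partners in the cell cycle, Cdk4 had 1476, Ccnd1 had 1392, Cdk2 had 858 and Ccne1 had 37.0 mean normalized counts per kb.

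Of the zinc finger proteins of the list, Peg3 was the more abundant. Peg3 (ENSMUSG00000002265, chr7:6703892-6730431, minus strand) had a mean normalized count of 2635 and 303 mean normalized counts per kb. Plagl1 (ENSMUSG00000019817, chr10:13060504-13131694, plus strand) had a mean normalized count of 148 and 28.2 per kb. H19 was 75.7 times and Cdkn1c 67.3 times as high as Plagl1 per kb of the longest transcript, and 12.6 and 16.5 times per kb of the median transcript. The gene that has been described as a regulator of the network was therefore the member with the second lowest level.

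Mest, also known as Peg1, encodes a hydrolase-like protein of the endoplasmic reticulum, and Dlk1 a membrane protein that holds back the differentiation of fat cell precursors. Mest (ENSMUSG00000051855, chr6:30723547-30748465, plus strand) had a mean normalized count of 1242 and 466 mean normalized counts per kb, the fourth level. Dlk1 (ENSMUSG00000040856, chr12:109452823-109463336, plus strand) was the lowest member, at a mean normalized count of 56.0 and 12.0 mean normalized counts per kb, at percentile 29.9. H19 was 177 times as high as Dlk1 per kb of the longest transcript.

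**Figure D2:**
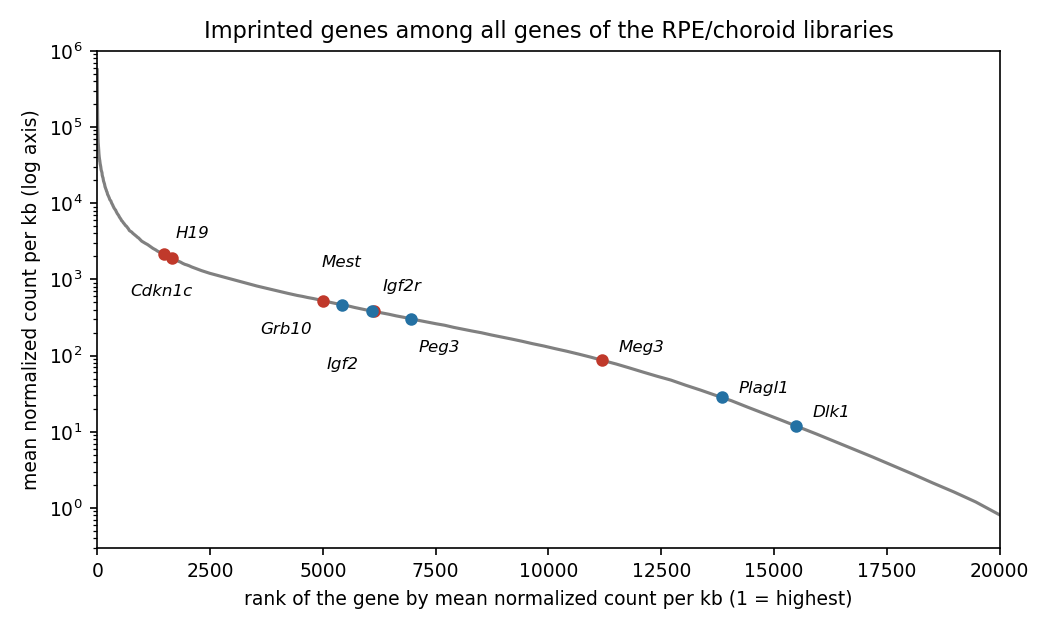
Mean normalized count per kb of the longest transcript (log axis) against the rank of a gene by that value (1 is the highest). The grey line is the curve of the genes with a transcript length, up to the end of the axis, and points are the 10 imprinted genes, red where the maternal and blue where the paternal copy is known to be expressed. H19 (rank 1469) and Cdkn1c (1654) lie to the left, a group from Grb10 (4999) to Peg3 (6947) in the middle, and Meg3 (11193), Plagl1 (13852) and Dlk1 (15474) to the right.

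Grouped by the parental copy from which they are known to be expressed, the 5 maternally expressed genes H19, Meg3, Cdkn1c, Grb10 and Igf2r had between 86.6 and 2135 mean normalized counts per kb of the longest transcript, with a median of 527. The 5 paternally expressed genes Igf2, Dlk1, Peg3, Plagl1 and Mest had between 12.0 and 466, with a median of 303. The groups thus overlapped on this scale. The copy that was read in these libraries was not measured. Grb10 is known to be read from the paternal copy in neurons.

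The order of the levels per kb was the same under each transcript length at its lower end only. Plagl1 was at place 9 and Dlk1 at place 10 per kb of the longest transcript, of the median transcript and of the exon union alike. H19 was at place 1 with the longest transcript, 3 with the median transcript and 1 with the exon union, and Cdkn1c at places 2, 1 and 2. Igf2r took places 6, 2 and 3 in the same order of lengths, and Grb10 places 3, 4 and 6. The median transcript has 803 bases in Igf2r and 667 in Cdkn1c, against 8887 and 1901 for the longest. Places by the median transcript therefore rest on short annotated transcripts. In the absence of values per library, which neighbours in the order differ beyond the spread between mice cannot be said.

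The imprinted clusters around these genes differed in how far the neighbours were read. Beside H19 and Igf2, which lie 72.6 kb apart, the noncoding RNA Nctc1 had 153 and Ins2, an insulin gene, 99.0 mean normalized counts per kb, against 2135 for H19 and 383 for Igf2. H19 was 5.57 times as high as Igf2 per kb of the longest transcript and 2.19 times per kb of the median transcript. In the cluster of Dlk1 and Meg3, which lie 77.7 kb apart, the noncoding RNAs Rian and Meg3 were highest per kb of the longest transcript. The noncoding Mirg lay below the coding gene Dio3. The place of Meg3 above Dio3 depended on the length used. Meg3 had 69.6 per kb of exon union and 1580 per kb of the median transcript, against 71.0 per kb of the longest transcript for Dio3. Rian, a maternally expressed noncoding RNA 32.2 kb beyond Meg3, had a mean normalized count of 2561 and 317 per kb, and Mirg, another one, had 105 and 27.4 per kb. Of the coding genes, Dio3, which encodes an enzyme that inactivates thyroid hormone, had 71.0 and Rtl1, derived from a retrotransposon, had 2.30 mean normalized counts per kb. Meg3 was 7.19 times as high as Dlk1 per kb of the longest transcript and 36.4 times per kb of the median transcript.

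In the cluster of Cdkn1c the highest gene was Cd81, a widely expressed tetraspanin, with 10378 mean normalized counts per kb, followed by the histone chaperone gene Nap1l4 with 2814. Tssc4 had 817 and Osbpl5 had 487 mean normalized counts per kb, both below Cdkn1c. The growth-restricting gene Phlda2 had 8.11 and Ascl2 had 1.94 mean normalized counts per kb, both of them known mainly from the placenta. Peg3 stood above its neighbours Usp29 (4.71 mean normalized counts per kb) and Zim1 (4.19). Igf2r stood above Airn, the antisense RNA that starts within it (90.6 per kb), above Slc22a2 (13.5) and above Slc22a3 (0.800). The level of Airn rests on an annotated transcript of 1375 bases, although the gene spans chr17:12741311-12860136. Airn and Igf2r overlap over 28354 bases on opposite strands, so their relation per kb is uncertain. Mest was lower than Copg2 (898 per kb), which overlaps it on the opposite strand, and Klf14 had 0.586. Next to Grb10, Ddc, which encodes the enzyme that makes dopamine and serotonin from their precursors, was higher than Grb10 per kb (667 against 527 mean normalized counts per kb), although its mean normalized count was lower (1346 against 2668). Cobl had 46.4 mean normalized counts per kb.

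**Figure D3:**
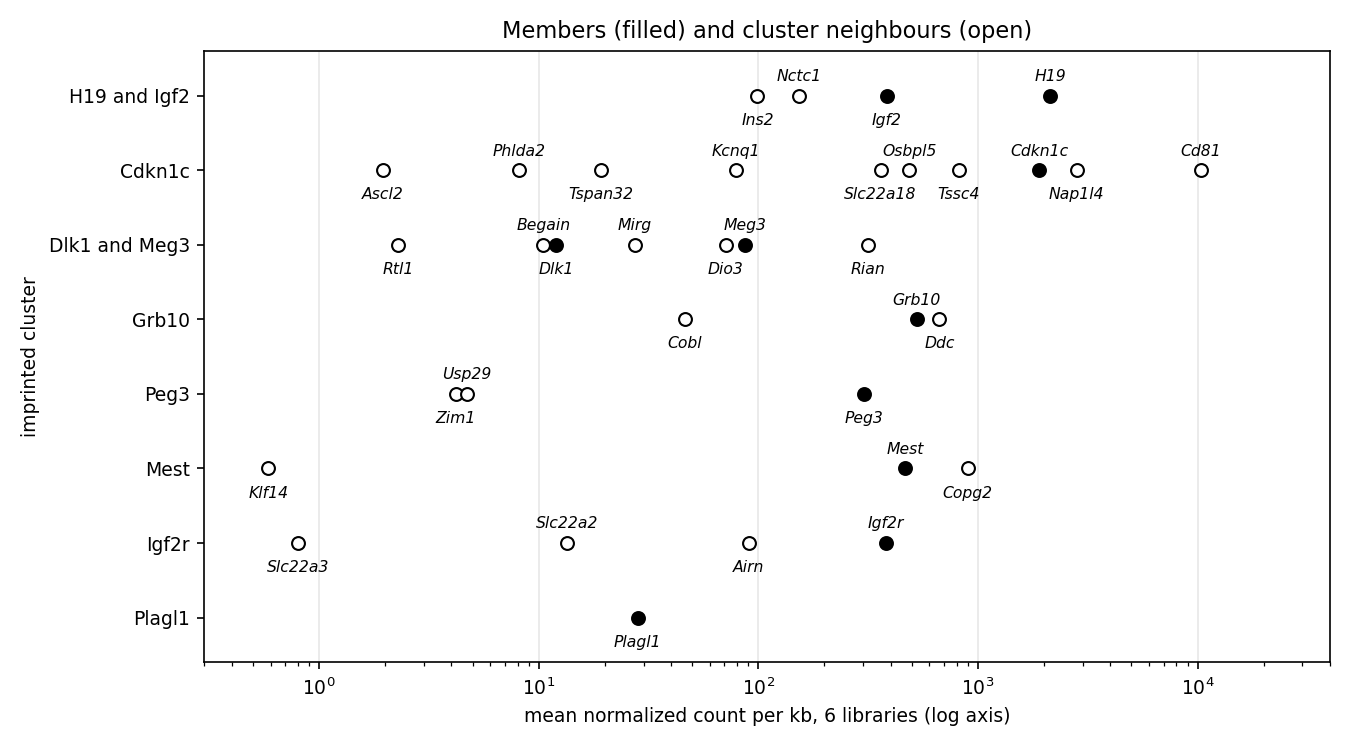
Mean normalized count per kb of the longest transcript over the 6 libraries (log axis) of the 10 imprinted genes (filled points) and of neighbours in the same imprinted cluster (open points), 1 row a cluster. H19, Peg3 and Igf2r are the highest points of their rows, Cdkn1c, Meg3, Grb10 and Mest have a neighbour to their right, and Plagl1 is shown alone.

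A further 64 genes comprise 30 genes of these clusters, not all of which need be imprinted, and 34 imprinted genes elsewhere. Whether any of them is imprinted in RPE/choroid was not measured. Of the 64, 57 were listed under the current symbol, 50 were detected and 22 reached a mean normalized count of 1000. Igf2os was listed under its older symbol Igf2as in addition, with a mean normalized count of 35.0. The 22 genes are 38.6% of the listed ones, against 29.7% of all genes with a mean above 0. They were 7 of 25 listed cluster genes (28%) and 15 of 32 listed genes elsewhere (46.9%). Of the genes elsewhere, the 5 with the highest mean normalized counts were Dcn, Impact, Nap1l5, Commd1 and Herc3. They had 18042, 2336, 2515, 993 and 893 mean normalized counts per kb, in this order. The order differed per kb, where Snrpn (1592) lay above Commd1 and Herc3, and Ndn (956) above Herc3. Dcn encodes the matrix proteoglycan decorin and is known to be imprinted in the mouse placenta. Magel2 (2.93), Nespas (4.59) and Kcnk9 (1.29), which were chosen for mention after their values were seen, were the genes of this list with a mean normalized count under 10.

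Of 7 genes for factors that read and keep imprints, 5 were detected, which is 71.4% and near the 72.4% of all genes with a mean above 0. Trim28, a corepressor that zinc finger proteins bring to imprinted regions, had 1187 mean normalized counts per kb. Ctcf, the insulator protein that binds between H19 and Igf2 on the maternal chromosome, had 756. The maintenance methyltransferase gene Dnmt1 had 221, and Zfp445 and Zfp57, which encode zinc finger proteins that recognize methylated imprints, had 210 and 101. Dppa3 and the germ cell gene Ctcfl had mean normalized counts of 8.54 and 0.656.

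Markers of the labelled tissue were abundant. Of 9 RPE markers 8 reached a mean normalized count of 1000, with Ttr (397586), Rgr (297444) and Rpe65 (113930) among them, and Best1 with 81.8 was the exception. Other cells of the eye cup were represented as well. The 5 melanocyte and pigment markers, which the RPE shares in part, lay between 25408 and 256984 and held 1.35% of all normalized counts. The 5 rod photoreceptor markers had mean normalized counts between 8413 and 139449 and held 0.581%, and the 5 skeletal muscle markers lay between 35123 and 48944 and held 0.511%. The 6 fibroblast and scleral matrix markers lay between 829 and 37221 and held 0.270%, and the 5 endothelial markers lay between 717 and 7369 and held 0.0448%. Of 5 macrophage markers, 4 were listed under the current symbol, lay between 3067 and 121895 and held 0.352%. The other, Adgre1, was listed under its older symbol Emr1 with a mean normalized count of 3877 and is not part of this share. The 4 pericyte and smooth muscle markers held 0.152% and the 4 Schwann cell markers 0.0224%. No defining marker of these lists was at 0. H19 and Igf2 are known to be expressed in muscle and in connective tissue, and the part of each cell type in the levels given here was not tested. In bulk tissue, fewer cells of a type and less RNA per cell cannot be told apart.

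**Figure D4:**
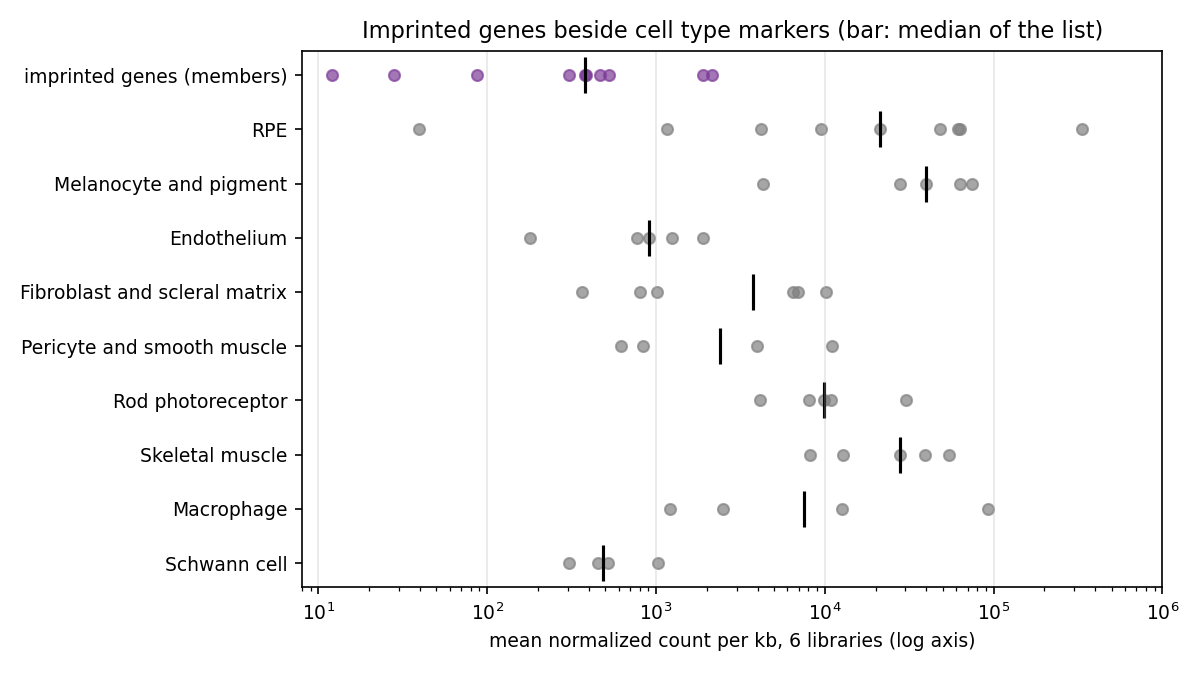
Mean normalized count per kb of the longest transcript over the 6 libraries (log axis) of the 10 imprinted genes (top row, purple) and of marker genes of 9 cell types (grey), 1 point a gene, with a bar at the median of each list. The imprinted genes have a median of 381 per kb, below the 486 of the Schwann cell and the 915 of the endothelial markers, which are the lowest medians of the marker lists. The macrophage marker Adgre1, listed under an older symbol, is not shown.

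Sequence shared with other genes limits some of these levels. Of the words of 31 bases in the annotated transcripts of Dlk1, Grb10 and Igf2r, 100% occurred in no other gene. The share was 99.97% for Peg3, 99.8% for Plagl1, 94.7% for H19 and 88.6% for Meg3. Mest had 78.0%, with 882 words shared with Copg2 on the opposite strand, and Cdkn1c had 72.8%, with 567 words shared with the antisense gene Gm44732. Igf2 had 36.9%, with 3566 words shared with the overlapping gene Gm49394 on the same strand. Gm49394 and Gm44732 were not analysed here, and whether the quantification used the strand is not given in the sources used here. Both are in an annotation later than that of the authors, so whether reads of Igf2 or Cdkn1c were shared with them is not known.

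Promoters of imprinted genes are of interest because the methylation that marks the parental copies falls on CpG dinucleotides, which were counted here in windows of 300 bases, from 250 before to 50 after a transcription start. RefSeq promoters on GRCm38.p6 were at hand for 8 of the 10 genes, 15 windows in all, some genes having several starts. H19 and Cdkn1c were not matched. Of the 15 windows 4 held at least 20 CpG, in Igf2, Plagl1, Grb10 and Igf2r, which is 26.7%, against 26.5% of 32851 promoters in the table. The windows are not independent, since the Mest windows chr6:30737800-30738099 and chr6:30737803-30738102 overlap almost fully and Igf2 gives several. The CpG count was highest in a Grb10 window with 45 CpG, at percentile 98.2 of all promoters, followed by 34 CpG in Igf2r, 26 in Plagl1 and 24 in an Igf2 window. Promoters of Igf2 held between 2 and 24 CpG, and the table by gene does not tell which of them was used.

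The Grb10 and Igf2 windows with the most and the fewest CpG are printed below 5′ to 3′ on the minus strand, with each CpG in capitals, since they show how far promoters of 1 imprinted gene can differ. The Grb10 windows are chr11:12037371-12037670 with 45 CpG and chr11:12027922-12028221 with 9. The Igf2 windows are chr7:142658755-142659054 with 24 CpG and chr7:142666767-142667066 with 2.
Grb10, 45 CpG: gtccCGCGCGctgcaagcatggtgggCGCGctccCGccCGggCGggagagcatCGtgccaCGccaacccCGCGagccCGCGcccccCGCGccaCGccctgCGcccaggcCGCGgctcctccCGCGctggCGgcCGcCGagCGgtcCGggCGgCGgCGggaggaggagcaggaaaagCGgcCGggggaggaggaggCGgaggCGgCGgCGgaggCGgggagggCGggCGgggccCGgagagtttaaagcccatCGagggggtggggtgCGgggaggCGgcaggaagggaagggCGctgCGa
Grb10, 9 CpG: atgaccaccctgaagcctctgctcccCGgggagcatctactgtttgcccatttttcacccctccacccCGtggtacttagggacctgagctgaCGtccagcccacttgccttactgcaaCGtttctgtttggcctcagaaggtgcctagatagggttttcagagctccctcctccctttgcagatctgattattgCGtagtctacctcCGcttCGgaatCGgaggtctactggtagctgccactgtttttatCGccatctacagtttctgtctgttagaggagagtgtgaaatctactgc
Igf2, 24 CpG: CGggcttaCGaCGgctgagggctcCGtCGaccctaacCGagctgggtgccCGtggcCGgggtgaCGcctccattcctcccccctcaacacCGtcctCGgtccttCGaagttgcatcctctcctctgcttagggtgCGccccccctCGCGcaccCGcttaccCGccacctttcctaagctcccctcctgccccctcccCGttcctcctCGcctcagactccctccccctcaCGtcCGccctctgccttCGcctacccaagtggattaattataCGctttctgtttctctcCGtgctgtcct
Igf2, 2 CpG: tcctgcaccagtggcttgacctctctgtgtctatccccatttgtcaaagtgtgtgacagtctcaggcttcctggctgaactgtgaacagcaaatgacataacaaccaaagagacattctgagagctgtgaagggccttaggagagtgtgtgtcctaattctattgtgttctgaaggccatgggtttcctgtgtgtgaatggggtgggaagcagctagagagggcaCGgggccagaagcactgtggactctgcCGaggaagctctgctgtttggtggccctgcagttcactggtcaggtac

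The ratio of observed to expected CpG, which corrects for the C and G content of a window, was 0.973 and 0.446 in the Grb10 windows and 0.896 and 0.0999 in the Igf2 windows, with a median of 0.384 over all promoters of the table. Dlk1 (0.427) and Peg3 (0.463) were near that median. Methylation was not measured in these samples.

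**Figure D5:**
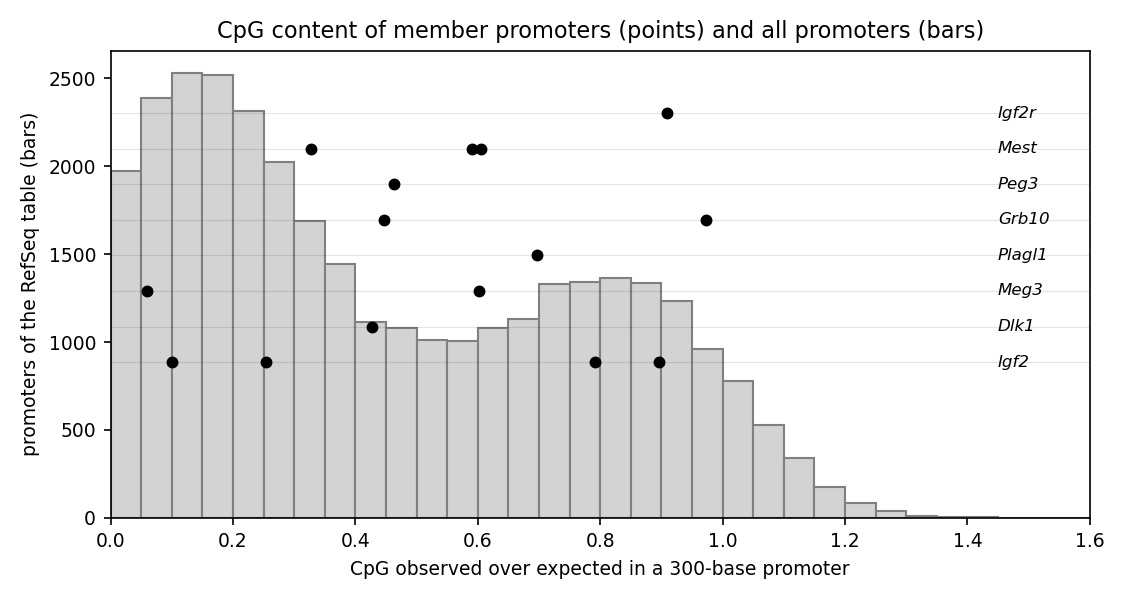
Ratio of observed to expected CpG in promoters of 300 bases. Grey bars count all 32851 promoters of the RefSeq table in steps of 0.05, and black points mark the 15 windows of 8 imprinted genes, 1 line a gene, whose height carries no value. The points spread over the range of the bars, from 0.0588 in a Meg3 window to 0.973 in a Grb10 window.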

How the data were processed

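Per the paper, ribosomal RNA was removed with a Ribo-Zero Gold kit. Libraries from 3 young and 3 aged mice were then made with a stranded total RNA kit. Per the labels and the paper they were also selected for poly(A), but the protocol in the labels does not describe that step. Per the methods of the study, the authors trimmed reads with BBDuk, used STAR for mapping to Ensembl transcripts of GRCm38, quantified them with Sailfish and scaled them to total counts. The submitters' processing notes name STAR, DESeq2 and GRCm38. The deposited value used here is a signal, the mean normalized count of a gene over all 6 libraries, as the authors' DESeq2 run wrote it. The other 5 columns hold the authors' comparison of the ages (log2 fold change, its standard error, statistic, p-value and adjusted p-value) and were not used. No value per library was at hand, so no test was made.

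Whether the means are counts or already per length was checked, since the described processing passes through a unit per length. If they were already per length, the levels per kb would be corrected for length again. In genes with a mean under 3, the fifth percentile of 6 times the mean was 0.968 for transcripts of up to 600 bases and 1.01 between 2500 and 5000 bases, so the smallest step was about the same in genes of these lengths. Above 5000 bases, where 80 genes had so low a mean, it was 1.84, so the check is less clear there. The longest transcripts of Meg3, Igf2r, Peg3, Plagl1 and Grb10 are of this class, so their levels per kb carry this limit. The median mean of genes from 10 upward rose from 114 in the shortest to 1029 in the longest of these classes. Sums near 2 were more frequent than sums near 1. Whether the mates of a pair were counted separately was not tested. Levels per kb used transcript lengths of GENCODE M21 on GRCm38, a later annotation than the authors', matched by symbol for 89.0% of genes with a mean of at least 10. Percentiles count the genes below a value.

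The members and lists were chosen with earlier results of these data known. Named are the members and the 5 highest genes by mean normalized count of each related list, with markers. Snrpn, Ndn, Igf1r, Ccne1, the Igf2bp genes, Dppa3, Ctcfl and the cluster neighbours outside the 5 highest were chosen for their position, role or level after their values were seen. Lists of related genes are described by their counts and medians, with no test. Functions were tested on simulated input. Python 3.11.15, numpy 2.4.6, pandas 2.3.3 and matplotlib 3.10.9 were used.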

Additional observations from a re-analysis of the deposited data

How the results depend on the processing

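No paired analysis was possible because only a mean over all libraries was used, and for the same reason no replicate could be left out. With a minimum of 2000 in place of 1000, 5 of the 10 genes counted as abundant in place of 8. With the median transcript length the median level of the 10 genes was 1968 mean normalized counts per kb, and with the union of exons 304, in place of 381. The median percentile of the 10 genes was 83.4 among genes with a mean above 0, 77.0 among genes with a mean of at least 10 and 77.6 among protein-coding genes. The number of detected members was 9 with a minimum of 100. Of the 64 further cluster and imprinted genes, 22 were abundant, and also 22 with older symbols matched. With a minimum of 500 the number was 25, and with 2000 it was 15. The means average both ages, so a level that differed between young and aged mice would lie between the levels of the groups.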

Other observations

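H19 has been described as a RNA that binds microRNAs of the let-7 family, whose 8 mature members in the RefSeq table share 1 seed. The letters CTACCTC, the complement of that seed, were searched on the sense strand of the longest transcript of each detected gene, with 1 transcript a gene. H19 held 0 matches in 2286 bases, as did Dlk1, Cdkn1c, Grb10 and Mest. Meg3 held 3 matches, Igf2 and Igf2r 2 each, and Plagl1 and Peg3 1 each. Of 16442 detected genes with a transcript, 22.8% held at least 1 match. A match of these letters is a description and not a binding site, and sites of other form were not searched.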
